A study of Mus musculus with 4 samples.

Results

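The 8 genes described here belong to the cell death protease machinery and were measured by RNA-seq of mouse neocortex at E13.5: the caspases Casp2, Casp6, Casp8 and Casp9, the caspase inhibitors Xiap and Birc2, and the mitochondrial factors Diablo and Cycs. They were taken by gene name from a table of 40630 genes, and all 8 were found once each and passed the filter of a mean of at least 1 TPM (transcripts per 1000000). The study, in C57BL/6 mice, compared 2 libraries labelled Upf2fl/fl Emx1-Cre+ (conditional knockout, here cKO-labelled, replicates 4 and 5) with 2 libraries labelled Upf2fl/+ Emx1-Cre- (control, replicates 8 and 9), described as littermates. Upf2 encodes an adaptor protein of NMD (nonsense-mediated mRNA decay), which removes transcripts with early stop codons. The controls carry a floxed allele too and lack Cre, so the groups differ in Cre and in floxed dose at once. Emx1-Cre acts in progenitors of the dorsal telencephalon and the cells they produce, so vessels, microglia, meninges and interneurons from the ventral telencephalon are not its targets. The labels name no embryo for a library, so p-values rest only on the spread between these libraries, which may be technical. In the fit with all 4 libraries described below, each gene's standard error comes from a spread pooled over genes, not from its own spread.

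Caspases are proteases made as inactive precursors. Initiator caspases are switched on when assembled on a platform: Casp9 on the apoptosome, which Apaf1 forms once cytochrome c (Cycs) leaves the mitochondrion, Casp8 beneath death receptors, and Casp2 on a platform with Pidd1 and Cradd. Executioner caspases, Casp6 among them, then cut cell proteins. Xiap directly inhibits active caspases, Birc2 is a ubiquitin ligase of the same inhibitor family that acts in death receptor signalling, and Diablo is released from mitochondria and displaces the inhibitors. In the developing mouse brain the Casp9 branch removes neural progenitors and young neurons.

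Casp8 was the gene of the 8 that was called: its mean level in controls was 3.81 times that in the cKO-labelled libraries. None of the other 7 passed the test, which was limma across all genes with a Benjamini-Hochberg adjusted p under 0.05. That is 1 of 8 called, against 8.14% of the 15107 genes tested, or 5.24% lower and 2.9% higher. Fold changes were negative for 6 genes and positive for Casp2 and Casp9, and their median was -0.67 on the log2 scale, beside -0.16 for all tested genes. At an unadjusted p under 0.05 there were 5 of the 8 genes, against 22.8% of all genes. With 2 libraries a group, a gene that did not pass was not thereby shown to be unchanged.

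**Figure D1:**
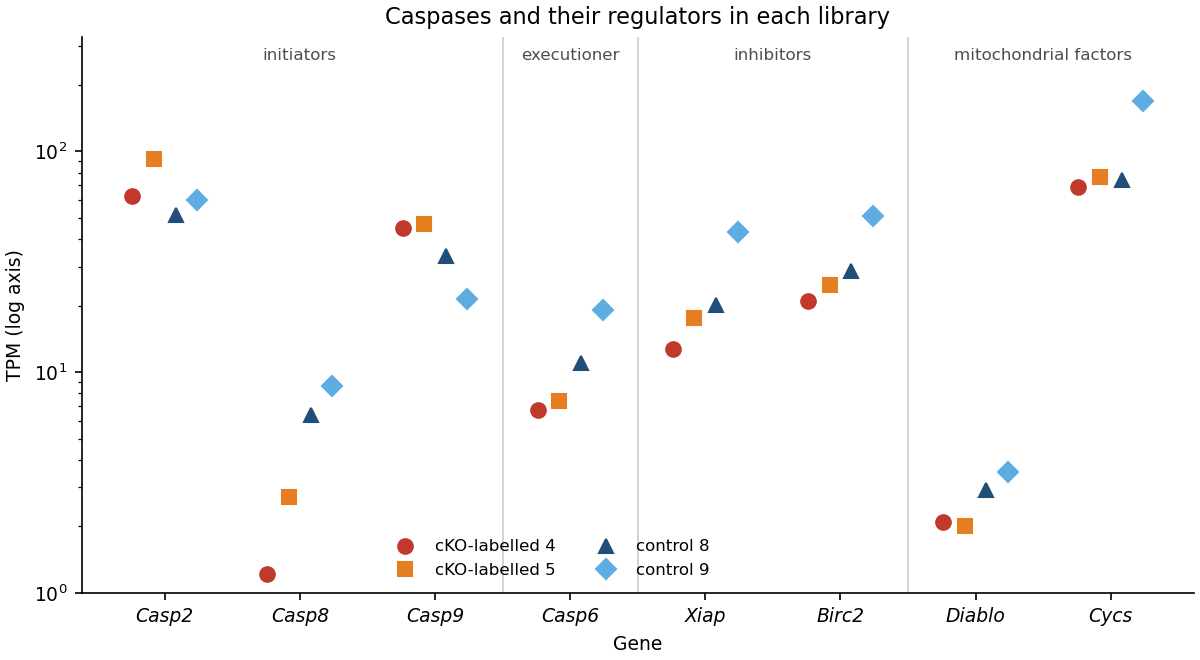
TPM (log axis) of each gene in each of the 4 libraries, ordered by role, with 1 point per library and no averaging. The Casp8 points lie at 1.22 and 2.73 TPM with the cKO label and at 6.42 and 8.61 TPM with the control label, and control replicate 9 holds the highest point of Casp8, Casp6, Xiap, Birc2, Diablo and Cycs.

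Recovered depth was 33537843 to 41680052 reads per library. Upf2 itself had 27.8 TPM in cKO-labelled 4, 42.2 in cKO-labelled 5, 23.7 in control 8 and 41.3 in control 9, so the whole-gene value did not separate the groups. The floxed segment is only part of the gene, so this value does not check the deletion. All 10 dorsal cortex markers were detected and 2 of them fell, with summed levels of 1566 and 1893 TPM with the cKO label, against 2018 and 2143 TPM in the control pair. Here and below, a marker that fell or rose was called (limma adjusted p under 0.05). Of all tested genes, 5.24% were called lower and 2.9% higher. A marker that was not called was not thereby shown to be unchanged. The control libraries differed from each other by base composition: over 14959 genes, which are not independent replicates, GC content and the log2 difference between the controls (9 minus 8) had a Spearman rho of -0.76. Within the cKO-labelled pair (5 minus 4) the rho was -0.32. A difference between 2 libraries does not tell which of them departs. With median-of-ratios scaling or quantile normalization the median fold change of all genes moved from -0.16 to -0.01, and the share of calls that were higher moved from 35.6% to 52.6% and 57.2%.

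Among the initiators, Casp8 (ENSMUSG00000026029.14, chromosome 1, 58795374 to 58847503, plus strand, GRCm38) had 1.22 TPM in cKO-labelled 4, 2.73 in cKO-labelled 5, 6.42 in control 8 and 8.61 in control 9. These values rest on 36 and 87 reads against 237 and 276, and the lowest count carries a relative counting error of 16.7%. Both cKO-labelled libraries lay below both controls, and replicate 5 held 2.23 times the level of replicate 4. The means were 1.97 ± 1.06 and 7.51 ± 1.55 TPM (SD, n = 2 each), and the log2 fold change was -1.55 ± 0.37 (SE; 95% interval -2.28 to -0.82; limma adjusted p = 0.00119). In bulk tissue, fewer cells that express the gene and less RNA per cell cannot be told apart.

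The Casp8 call did not hold in every fit, while its fold change stayed at -1.18 or below wherever it was tested. The call ended without cKO-labelled replicate 4 (-1.18), without replicate 5 (-1.93) and without control replicate 9 (-1.37, or -1.29 with the GC trend also removed). With no filter on low TPM the Casp8 call ended too (limma adjusted p = 0.184). Its adjusted p ran from 0.00063 to 0.9998 among 13 alternatives. Casp8 stood at -1.74 without control replicate 8, and it was called after removal of the GC trend (-1.24, limma adjusted p = 0.0254). In each fit where the Casp8 call ended, fewer genes were also called over all genes than with all libraries and the filter. Why the call ended was not tested.

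Transcripts of some other tissues also differed between the groups. All 10 cortical hem and choroid plexus markers fell, with a summed level of 6.56 and 9.29 TPM with the cKO label, against 2107 and 2306 TPM in the control pair, and Kcne2 was at 0 in cKO-labelled replicate 4. All 10 meningeal and mesenchymal markers fell as well, with sums of 8.12 and 3.79 TPM against 457 and 254 TPM, and Aldh1a2 was at 0 in cKO-labelled replicate 5. Of 10 microglia and macrophage markers 2 fell, with sums of 116 and 171 TPM against 339 and 131 TPM and none at 0. Of 10 endothelial and pericyte markers 1 fell, with sums of 120 and 104 TPM against 170 and 131 TPM and none at 0. All 12 ganglionic eminence and interneuron markers rose, with sums of 1066 and 557 TPM against 98.5 and 193 TPM and none at 0. None of 10 red blood cell markers was called, with sums of 17583 and 7757 TPM against 18176 and 9516 TPM and none at 0. The part of these tissues in the Casp8 difference was not tested.

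Cflar, which encodes a catalytically inactive relative of Casp8 that restrains it at death receptors, ends 36.5 kb before Casp8 on chromosome 1. It had 2.34 and 3.23 TPM with the cKO label, against 4.05 and 6.25 TPM in the control pair, groups that did not overlap, and it did not pass (-0.69 ± 0.37 (SE), limma adjusted p = 0.248; without control replicate 8, -0.95, adjusted p = 0.0379). Within each library, the TPM of Casp8 divided by that of Cflar was 0.522 and 0.843 in the cKO-labelled pair and 1.58 and 1.38 in the controls. The ratio was thus lower in both cKO-labelled libraries than in both controls, with a difference of -1.15 on the log2 scale (exact two-sided permutation p = 0.333, the smallest that 2 libraries a group can give).

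Casp9 (ENSMUSG00000028914.13, chromosome 4, 141793612 to 141815976, plus strand), the initiator of the mitochondrial pathway, had 45.1 TPM in cKO-labelled 4, 46.7 in cKO-labelled 5, 33.5 in control 8 and 21.4 in control 9. The cKO-labelled libraries were close to each other and above both controls, while the controls differed from each other. The means were 45.9 ± 1.11 and 27.4 ± 8.56 TPM (SD, n = 2 each), and the difference did not pass (0.76 ± 0.36 (SE), 95% interval 0.05 to 1.46, limma adjusted p = 0.183). Without control replicate 9 the fold change was 0.44, and without control replicate 8 it was 1.07.

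Casp2 (ENSMUSG00000029863.13, chromosome 6, 42264985 to 42282508, plus strand) was the most abundant of the 4 caspases. Among its 10 transcripts in GENCODE M21 is a coding form, Casp2-201, and a form annotated as an NMD substrate, Casp2-209, which contains an additional exon of 61 bases (chr6:42276870-42276930). Since 61 is not a multiple of the codon length, inclusion shifts the reading frame onto a TGA at bases 42279778 to 42279780, 256 bases before the last exon junction. The sequences are shown because this exon is found in the form annotated as an NMD substrate and not in the coding form. Each begins with 12 bases of the exon before and ends with 12 bases of the exon after. Capitals mark the same TGA, which is read as a stop in Casp2-209 and out of frame in Casp2-201.
Casp2-209: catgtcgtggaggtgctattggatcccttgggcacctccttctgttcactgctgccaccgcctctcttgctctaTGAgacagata
Casp2-201: catgtcgtggagaTGAgacagata
The deposited table holds 1 value per gene, so the share of Casp2 transcripts with this exon was not measured here.

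**Figure D2:**
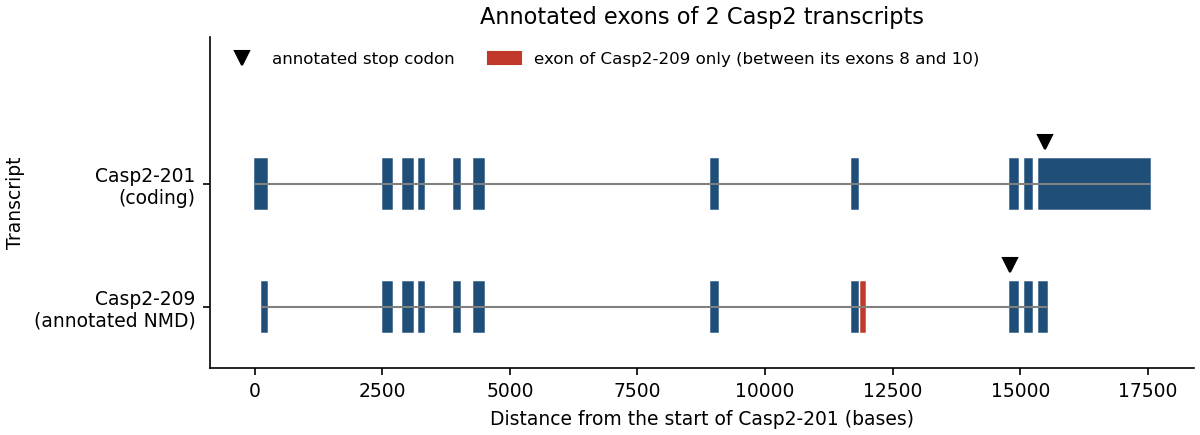
Annotated exons (boxes) of Casp2-201 and Casp2-209 by distance in bases from the start of Casp2-201, with the exon found in Casp2-209 alone in red and the annotated stop codons as triangles. The stop codon of Casp2-209 falls in exon 10 of its 12 exons, while that of Casp2-201 falls in the last of its 11.

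Casp2 had 62.5 TPM in cKO-labelled 4, 92.5 in cKO-labelled 5, 51.4 in control 8 and 60.03 in control 9. Replicate 4 lay just above the higher control and replicate 5 well above it, so the groups did not overlap. The means were 77.5 ± 21.2 and 55.7 ± 6.09 TPM (SD, n = 2 each), and the gene did not pass (0.45 ± 0.35 (SE), 95% interval -0.23 to 1.13, limma adjusted p = 0.431). Leaving out cKO-labelled replicate 5 gave a fold change of 0.17 and leaving out replicate 4 gave 0.72, and it was 0.70 after removal of the GC trend (adjusted p = 0.0623, the smallest of 14 alternatives).

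An annotated NMD transcript is not particular to Casp2. Of the 8 genes, 2 have at least 1 such transcript, Casp2 and Diablo, and among 12688 tested protein-coding genes 28.0% have one. Their fold changes had opposite signs, 0.45 for Casp2 and -0.46 for Diablo.

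Casp2 made up 54.1% and 62.0% of the summed TPM of the 4 caspases in the cKO-labelled libraries and 50.3% and 55.0% in controls, ranges that overlapped. The sum itself was 116 and 149 TPM against 102 and 109 TPM.

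Casp6 (ENSMUSG00000027997.9, chromosome 3, 129901425 to 129914103, plus strand), the executioner known for cutting nuclear lamins and for axon pruning, had 6.73 TPM in cKO-labelled 4, 7.37 in cKO-labelled 5, 10.9 in control 8 and 19.2 in control 9. The cKO-labelled pair was tight and below both controls, and control replicate 9 held 1.75 times the level of replicate 8. The means were 7.05 ± 0.453 and 15.1 ± 5.81 TPM (SD, n = 2 each), and the difference did not pass (-0.95 ± 0.39 (SE), 95% interval -1.71 to -0.19, limma adjusted p = 0.113). Leaving out control replicate 9 gave -0.57, and leaving out control replicate 8 gave -1.33.

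The inhibitors followed the same order of libraries as Casp6. Xiap (ENSMUSG00000025860.15, chromosome X, 42059679 to 42109656, plus strand) had 12.7 TPM in cKO-labelled 4, 17.5 in cKO-labelled 5, 20.1 in control 8 and 43.1 in control 9. The groups did not overlap, but control replicate 8 was nearer to the cKO-labelled libraries than to control replicate 9. The means were 15.1 ± 3.43 and 31.6 ± 16.3 TPM (SD, n = 2 each; -0.94 ± 0.37 (SE), 95% interval -1.67 to -0.21, limma adjusted p = 0.0983). The fold change shrank to -0.41 without control replicate 9 and reached -1.47 without control replicate 8.

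Birc2 (ENSMUSG00000057367.12, chromosome 9, 7818227 to 7837064, minus strand) had 20.9 TPM in cKO-labelled 4, 24.8 in cKO-labelled 5, 28.6 in control 8 and 50.7 in control 9. The groups did not overlap, and the gap between the controls, 0.80 on the log2 scale, was larger than the fold change of -0.72 ± 0.36 (SE; 95% interval -1.43 to -0.01; limma adjusted p = 0.213). Birc2 stood at -0.32 without control replicate 9 and at -1.12 without control replicate 8. Its paralogue Birc3 was below the filter, at 0.08 and 0.18 TPM (4 and 10 reads) in the cKO-labelled pair against 0.55 and 0.95 TPM (35 and 53 reads) in the control pair.

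Set against Xiap, the caspase it inhibits in the mitochondrial branch stood higher in both cKO-labelled libraries than in either control. The difference in ratio was 1.76 on the log2 scale (exact two-sided permutation p = 0.333, the smallest that 2 libraries a group can give). The TPM of Casp9 divided by that of Xiap was 3.56 in cKO-labelled 4, 2.66 in cKO-labelled 5, 1.67 in control 8 and 0.496 in control 9. The order of the libraries was the reverse of their order by Xiap level, and the controls differed from each other more than control replicate 8 differed from cKO-labelled replicate 5. Casp9 and Xiap also differ in base composition, with 53.4% and 36.8% GC. After removal of the GC trend the fold changes were 0.65 for Casp9 and -0.31 for Xiap, beside 0.76 and -0.94 before it. The ratio was not tested after that removal.

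Cycs (ENSMUSG00000063694.5, chromosome 6, 50562563 to 50566538, minus strand), which encodes the electron carrier that starts apoptosome assembly, was the most abundant of the 8 genes by mean TPM. It had 68.8 TPM in cKO-labelled 4, 76.4 in cKO-labelled 5, 74.5 in control 8 and 168 in control 9. The other 3 libraries were close together and control replicate 9 stood 2.26 times above its partner, and Cycs was the gene of the 8 whose groups overlapped (-0.62 ± 0.34 (SE), 95% interval -1.30 to 0.06, limma adjusted p = 0.262). Without control replicate 9 the fold change was -0.04, and without control replicate 8 it was -1.20. The annotation holds 2 pseudogenes named after Cycs, and how reads shared with such copies were counted is not given in the sources used here, so its level is uncertain.

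Diablo (ENSMUSG00000029433.16, chromosome 5, 123509765 to 123524176, minus strand) had the lowest mean over the 4 libraries, although Casp8 was lower in cKO-labelled replicate 4. It had 2.10 TPM (132 reads) in cKO-labelled 4, 2.01 TPM (137 reads) in cKO-labelled 5, 2.91 TPM (229 reads) in control 8 and 3.51 TPM (240 reads) in control 9. Each pair was tight and the groups did not overlap, with a fold change that did not pass (-0.46 ± 0.36 (SE), 95% interval -1.16 to 0.24, limma adjusted p = 0.431). Its level is uncertain because its exons are shared: 1193 of its 6166 exon bases (19.3%) lie in exons of Gm49027 on the same strand, and 1326 (21.5%) lie in exons of B3gnt4 on the opposite strand. Reads from shared bases may have been left out or given to either gene. Gm49027 had 0.60 and 0.65 TPM in the cKO-labelled pair, and 1.60 and 0.78 TPM in the control pair, and B3gnt4 had 6.76 and 6.496 TPM against 5.28 and 4.12 TPM.

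**Figure D3:**
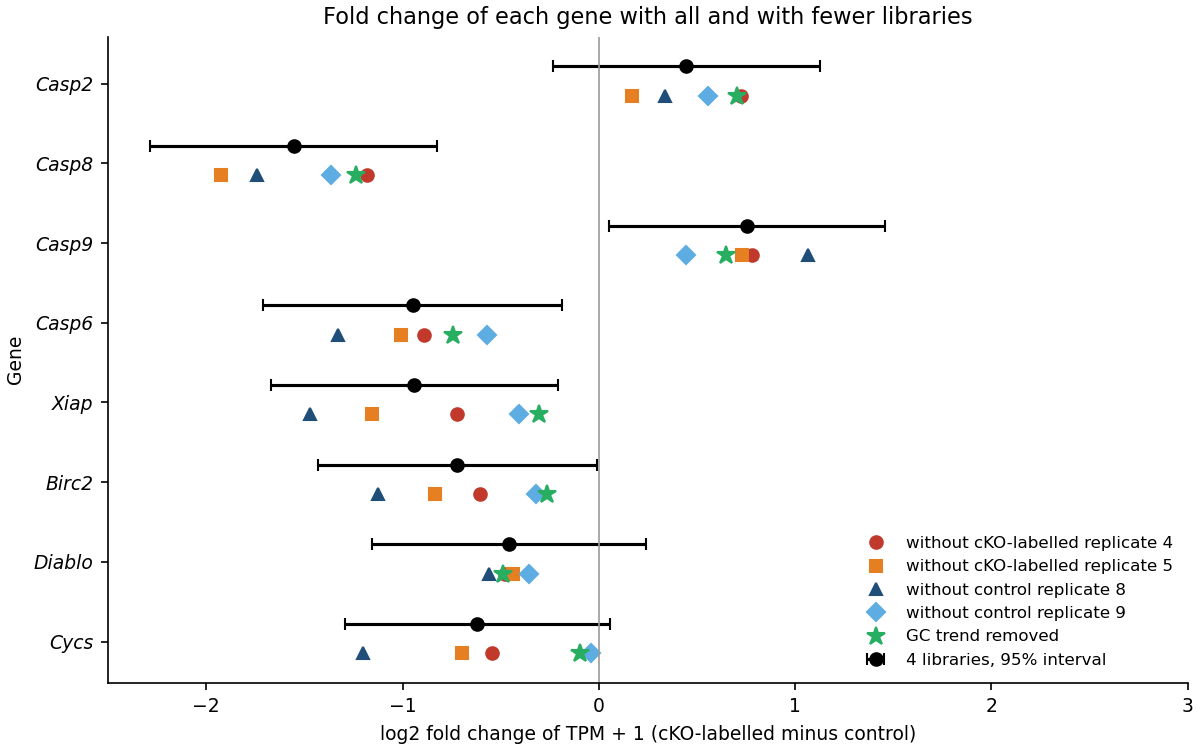
Log2 fold change of TPM + 1, cKO-labelled minus control, for each gene: black points with 95% intervals use all 4 libraries, and coloured points leave out 1 library or remove the GC trend. Leaving out control replicate 9 brings Cycs to -0.04 and Xiap to -0.41, while Casp8 stays at -1.18 or below in every fit drawn.

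The groups of libraries did not overlap for 7 of the 8 genes, 5 lower and 2 higher, against 57.6% of all tested genes (34.1% lower and 23.5% higher), and a gene whose groups do not overlap cannot turn its sign when 1 library is left out. Of the 8 genes, 7 were higher in control replicate 9 than in 8, Casp9 being the exception. Within the cKO-labelled pair 7 were higher in replicate 5 than in 4, Diablo being the exception. For 3 of the 8 genes the gap between the controls exceeded the fold change between the groups. The shares of all genes for these 3 counts are not given here. Without control replicate 8 there were 6 of the 8 genes called, Casp9 higher and Casp6, Casp8, Xiap, Birc2 and Cycs lower, in a fit that takes its spread from the cKO-labelled pair and called 48.8% of all genes (30.1% lower and 18.7% higher).

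Over all tested genes, both the fold change and the gap between the controls varied with base composition. All tested genes were placed in 5 equal groups by GC content. In the group of lowest GC content (median 41.3%), the median fold change of all tested genes was -0.54 and the median difference of control replicate 9 from 8 was 0.75. In the group of highest GC content (median 57.9%) the same medians were 0.36 and -0.58. Xiap, Cycs and Birc2, at 36.8%, 40.8% and 43.1% GC, all belong to the group of lowest GC content and stood at -0.40, -0.08 and -0.18 relative to its median fold change. Casp8 (46.6% GC) and Casp6 (48.6%) stood at -1.17 and -0.81 relative to the medians of their own GC groups, Casp2 (47.7%) and Casp9 (53.4%) at 0.83 and 0.64, and Diablo (52.2%) at -0.57. The members' own gaps between the controls (9 minus 8, log2 of TPM + 1) only partly followed the medians of their GC groups. In the group of lowest GC content they were 1.06 for Xiap, 1.16 for Cycs and 0.80 for Birc2, all above its median of 0.75. Casp9 had -0.62 and Diablo 0.21, in a group with a median of -0.28. Casp6 had 0.76 against a median of 0.22, and Casp8 and Casp2 had 0.37 and 0.22 against 0.57.

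**Figure D4:**
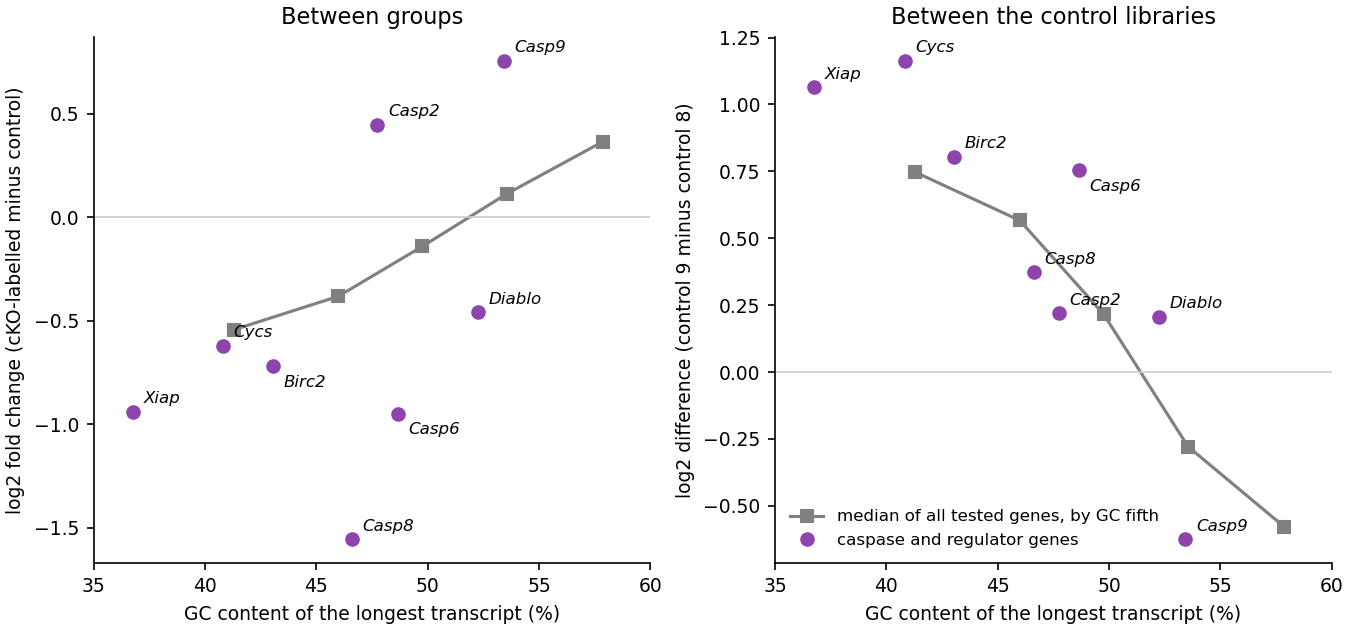
GC content of each gene's longest transcript against its log2 fold change between the groups (left) and against the log2 difference between the control libraries (right), with squares for the medians of all tested genes in 5 groups by GC content. On the left Cycs and Birc2 lie within 0.18 of the median of their GC group, while Casp8, Casp6 and Diablo lie below the line and Casp2 and Casp9 above it.

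After each library's trend with GC content was removed, 1 of the 8 genes was called, again Casp8, which was lower, against 8.92% of 14959 genes (4.8% lower). The fold changes of the GC-poor genes shrank, Xiap to -0.31, Birc2 to -0.26 and Cycs to -0.10 (limma adjusted p = 0.291, 0.323 and 0.782). Those of Casp6 and Casp9 were -0.74 and 0.65 (adjusted p = 0.0602 and 0.0681), and that of Diablo was -0.49. The median over the 8 genes was -0.28, beside -0.02 for all genes.

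The rest of the pathway was read from 5 lists with 46 genes, of which 36 passed the filter. None of the 36 was called over all genes, against 8.14% of all tested genes; 4 had an unadjusted p under 0.05, against 22.8% of all genes. The median fold change of the 36 was -0.12, beside -0.16 for all genes. The groups did not overlap for 17 of them, against 57.6% of all genes. Quantile normalization called 1 of the 36, Nol3, which was higher, against 8.27% of all genes (4.73% higher and 3.54% lower). The fit without control replicate 8 called 11, against 48.8% of all genes: 7 were higher and 4 lower, against 18.7% and 30.1%.

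The inflammatory caspases Casp1 and Casp4, and Casp12 and Casp14, were below the filter, none above 0.35 TPM in any library, and Casp14 was listed at 0 in all 4.

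Of 13 platform and death receptor genes 12 were tested and none passed (median -0.31). Nol3, which encodes an inhibitor that binds caspase recruitment domains, had 3.37 and 1.28 TPM in the cKO-labelled pair, and 1.13 and 0.74 TPM in the control pair (0.71, adjusted p = 0.175), and passed with quantile normalization alone of 13 alternatives (1.06, adjusted p = 0.0167). It stood at 0.25 without cKO-labelled replicate 4, at 1.18 without replicate 5 and at 0.50 after GC removal (adjusted p = 0.9998, 0.313 and 0.358). Pidd1, the platform protein for Casp2, had 27.4 and 35.2 TPM against 30.0 and 24.7 TPM, groups that overlapped (0.18, adjusted p = 0.779; -0.13 after GC removal). The death receptor gene Fas was below the filter, with 3 and 2 reads against 1 and 2.

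Of 7 other genes of the inhibitor family and its partners, 3 were tested and none passed (median -0.24). Birc5, the mitotic family member survivin, had 84.1 and 92.4 TPM in the cKO-labelled pair, and 108 and 117 TPM in the control pair (-0.35, limma adjusted p = 0.537), pairs that were each tight and did not overlap. Traf2, the adaptor that brings Birc2 to receptor complexes, had 44.6 and 44.7 TPM against 40.1 and 22.9 TPM (0.54, adjusted p = 0.347). It stood at 0.15 without control replicate 9, and at 0.94 without control replicate 8.

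Of 9 mitochondrial release genes 8 were tested, with 4 positive and 4 negative fold changes and no call (median 0.09). Bax, which encodes a pore former of the outer mitochondrial membrane, had 124 and 141 TPM in the cKO-labelled pair, and 105 and 56.2 TPM in the control pair (0.77, limma adjusted p = 0.15), and stood at 0.18 after GC removal. Hccs, whose enzyme attaches haem to cytochrome c, had 7.73 and 8.57 TPM against 11.6 and 21.002 TPM (-0.86, adjusted p = 0.153), and stood at -0.30 after GC removal. Both sets of groups did not overlap, and in both control replicate 8 was nearer to the cKO-labelled pair than control replicate 9 was. Without control replicate 8 Bax stood at 1.22 and Hccs at -1.27, and without control replicate 9 they stood at 0.33 and -0.46.

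All 13 genes of caspase substrates and their effectors were tested and none passed (median -0.05, range -0.34 to 0.56). Panx1, a membrane channel opened by caspase cleavage, had 65.7 and 52.9 TPM in the cKO-labelled pair, and 40.2 and 39.1 TPM in the control pair (0.56, limma adjusted p = 0.322). It stood at 0.68 after GC removal (limma adjusted p = 0.0592) and at 0.58 without control replicate 8. Dffa, the inhibitor of the apoptotic DNA nuclease, had 31.6 and 32.4 TPM against 25.8 and 22.9 TPM (0.38, adjusted p = 0.526). Lmnb1, a nuclear lamin, was the most abundant at 586 and 542 TPM against 572 and 723 TPM, groups that overlapped (-0.19, adjusted p = 0.776).

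**Figure D5:**
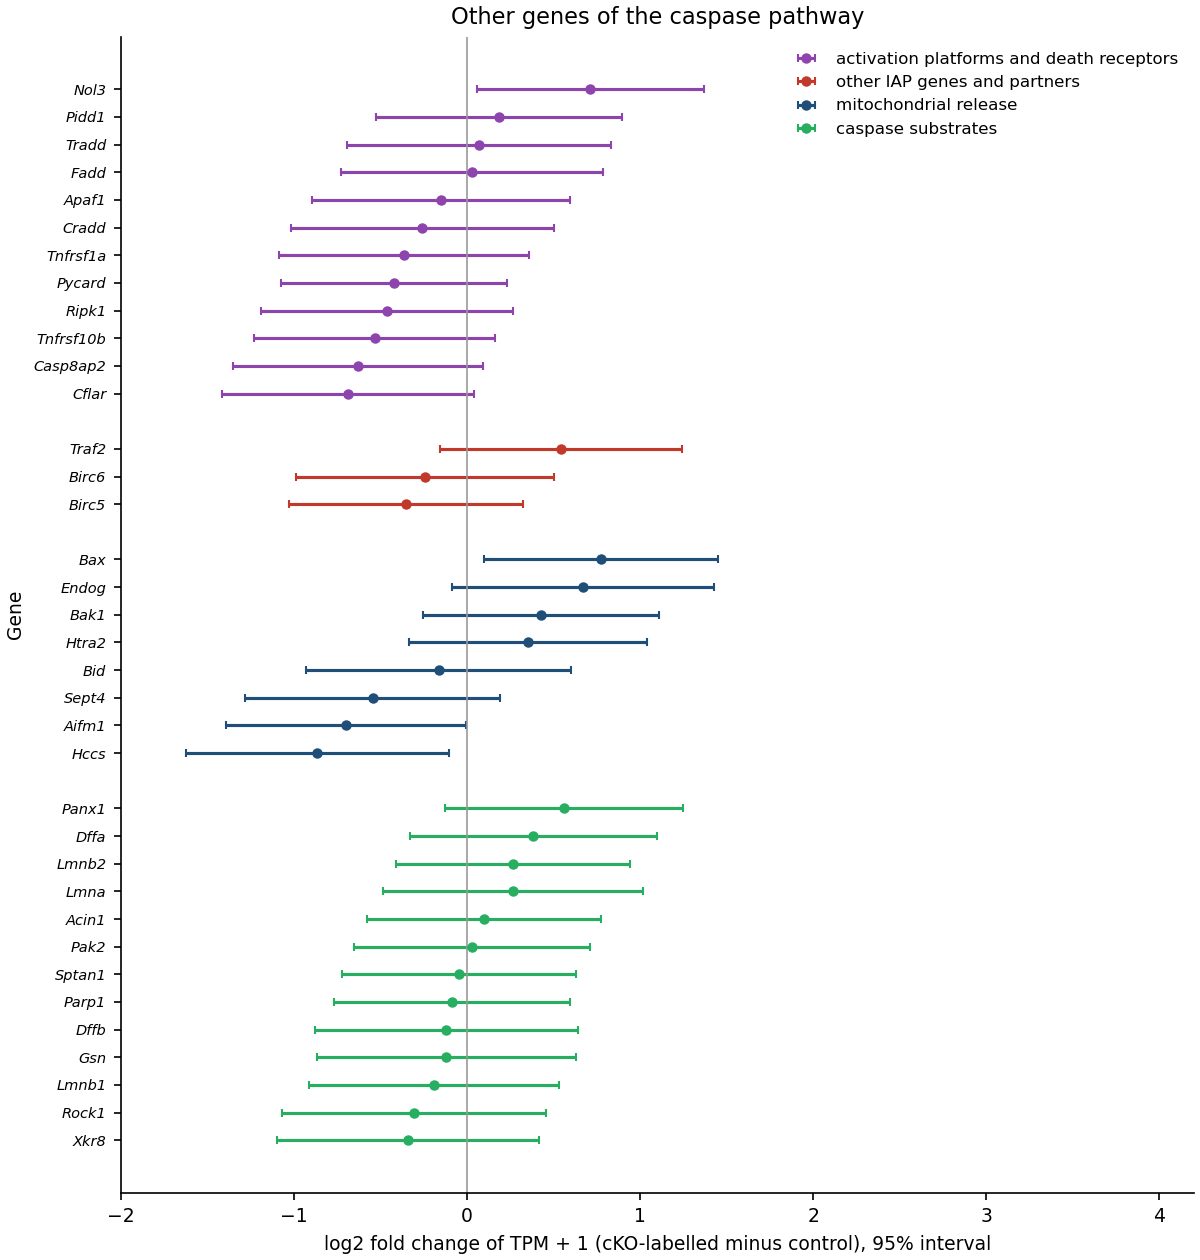
Log2 fold change of TPM + 1, cKO-labelled minus control, with 95% intervals for the 36 tested genes of the pathway lists, coloured by list. The points run from -0.86 for Hccs to 0.77 for Bax, and the intervals of all but 4 genes include 0.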

How the data were processed

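RNA was measured in 4 libraries of E13.5 mouse cortex. Per the labels' protocols, DNase-treated total RNA was made into stranded total RNA libraries, and reads were aligned with STAR to mm10, per the submitters' processing notes. Neither the counter nor its strand setting nor the annotation is given in the sources used here. Values were deposited by the authors as TPM, normalized by gene length and library. Depth was recovered from it: TPM times the merged exon length in GENCODE M21 (GRCm38) came out as whole reads (within 0.05) for 100.0% of values above 0. The 2 libraries of each group differed by more than sampling noise (chi-square per gene 35.8 and 230).

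Each fold change is a difference of group means of log2(TPM + 1), which understates changes of low genes. Genes of mean TPM of at least 1 were fitted with limma 3.58.1 in R 4.3.3 (empirical Bayes, trend), two-sided, with Benjamini-Hochberg adjustment over all tested genes. In this fit the prior degrees of freedom were infinite, so standard errors come from a spread pooled over genes. The prior degrees of freedom were finite with no filter (4.95), after GC removal (6.14) and in the fits without a control library. In those fits each gene's own spread counts too, so their adjusted p-values rest on a different spread. GC content is that of the longest transcript, known for 99.0% of tested genes, and its trend was removed by loess. The alternatives were other pseudocounts, filters, scalings and moderation, GC removal, and leaving out each library.

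The members, lists and alternatives were chosen with earlier results of these data known. Named genes were the 8 members, and from each pathway list any called gene, the 2 of smallest p and the most abundant; the death receptor gene Fas, the 4 caspases below the filter and Birc3 were added after their values were seen, and Gm49027 and B3gnt4 for their shared exons. Some list genes are not reported here. 27 gene symbols that a spreadsheet had turned into dates were restored from their IDs.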

Additional observations from a re-analysis of the deposited data

How the results depend on the processing

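The count of called genes was 1229. It was 178 with no filter on low TPM, 642 at a mean TPM of at least 5, 745 with the GC trend removed and control replicate 9 left out (an alternative chosen after seeing the data), and 176 to 7379 when 1 library was left out. The count of called members, 1 with all libraries, was 0 with no filter, 0 at a mean TPM of at least 5 (where Casp8 and Diablo were not tested), 0 with the GC trend removed and control replicate 9 left out, and 0 to 6 when 1 library was left out. The count over the pathway lists was 0, and it was 1 with quantile normalization and 0 to 11 when 1 library was left out. The sign of Cycs turned to 0.13 with the GC trend removed and control replicate 9 left out, where Pidd1 turned to -0.027, and Pidd1 also turned to -0.13 with GC removal. Upf2 ranged from -0.26 to 0.52 when 1 library was left out. The cause was not tested. Leaving out a library leaves 1 sample in its group, which is assumed to vary like the other group. No paired analysis was possible because the groups share no replicate number. Depth limits Casp8, with 36 reads in its lowest library.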
